A study of Arabidopsis thaliana with 10 samples.

Results

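The genes described here are 5 protein-coding genes of the mitochondrial genome of Arabidopsis thaliana: cox2, nad4L, nad9, ccb382 and orfX. Each was followed through the 1 probe set that the platform annotation gave to it alone, 5 of 22745 non-control probe sets with values. They were chosen by their intensities on these same arrays, which differed between the groups, so their values are given as a description, with standard errors and no test. The gene table placed all 5 in the mitochondrial genome, as their name says.

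Mitochondria keep a small genome for part of the respiratory chain, and the nucleus supplies most of the other subunits. Complex I takes electrons from NADH, and cytochrome c carries electrons on to complex IV, which passes them to oxygen. cox2 encodes a core subunit of complex IV, while nad4L and nad9 encode subunits of complex I. ccb382, listed as ccmFN1 in the gene table, acts in the attachment of haem to c-type cytochromes. orfX, listed there as mttB, is a homologue of bacterial tatC, which encodes a membrane protein of the twin-arginine protein export machinery. Transcripts of plant mitochondria mostly lack the stable poly(A) tails of nuclear mRNAs.

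The study followed pistils of ecotype Columbia after pollination on 10 one-colour Affymetrix arrays, 2 for each of 5 groups. The groups were ovules dissected from unpollinated pistils and not fertilised, unpollinated pistils, and pollinated pistils at 3 times, namely 0.5 HAP, 3.5 HAP and 8 HAP, where HAP stands for hours after pollination. All flowers had been emasculated 24 hours before pollination, so the unpollinated pistils and the ovules also came from emasculated flowers. A pistil replicate pooled 20 pistils from at least 10 plants, and an ovule replicate pooled about 1500 ovules from 50 pistils of about 30 plants. Pollinated pistils were measured with the pollen and pollen tubes on and in them.

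Values are linear intensities as the authors scaled them, and array medians were 251.5 to 272.2. Bacterial control probe sets reached 136.5 at their 95th percentile, and means up to that value are called background level. Differences are log2(intensity + 16), which understates the change of dim probe sets. Unpollinated replicate 2 stood apart in its log2 ratio of 3' to 5' actin control probe sets, 2.96 against 1.95 in unpollinated replicate 1 and 1.93 to 2.55 on the other arrays. The SD of the log2 difference between replicates over all probe sets was 0.20 in ovules and 0.23 in unpollinated pistils, against 0.12 to 0.15 in the pollinated groups. The summed level of 3 pollen marker genes was 641.8 to 677.7 in ovules. In unpollinated pistils it was 552.4 to 583.8, with 964 to 1044 at 0.5 HAP, 1272 to 1463 at 3.5 HAP and 1500 to 1568 at 8 HAP. In unpollinated pistils and ovules the pollen markers ANX1 and ANX2 were at background level, and TUA1 held most of the sum. From unpollinated pistils to 8 HAP, ANX2 averaged 37.42 and 486.1, ANX1 54.35 and 155.2, and TUA1 476.4 and 892.7. The summed level of 6 stigma, style and transmitting tract genes was 4077 to 4177 in ovules, 4059 to 4471 in unpollinated pistils, 8019 to 8047 at 0.5 HAP, 7234 to 8289 at 3.5 HAP and 3594 to 3861 at 8 HAP. Its genes did not all run the same way. ARPN averaged 4977 at 0.5 HAP against 1247 in unpollinated pistils, while SPT averaged 303.4 at 0.5 HAP against 550.3 in unpollinated pistils and CES 1832 against 1943. The 2 measured ovule markers summed to 4235 to 4845 in ovules, 826.7 to 966.8 in unpollinated pistils, 936.1 to 938.9 at 0.5 HAP, 987.6 to 1068 at 3.5 HAP and 1876 to 1934 at 8 HAP. At 8 HAP BAN averaged 1460, against 319.6 in unpollinated pistils, and INO 445.4, against 577.1 in unpollinated pistils. The part of pollen RNA, of RNA quality and of tissue makeup in the results below was not tested. In such bulk samples fewer cells of a type and less RNA per cell cannot be told apart.

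The 5 genes did not all follow the same course. cox2, nad4L and nad9 were high in unpollinated pistils and low at every time after pollination. At 0.5 and 8 HAP the mean of orfX lay above that before pollination, and the mean of ccb382 below it by 1.08- and 1.29-fold. All 5 genes had their lowest mean at 3.5 HAP, so that low point does not separate them.

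cox2, the complex IV subunit, had intensities of 961.8 and 2001 in unpollinated pistils, then 121.3 and 142.7 at 0.5 HAP, 100.5 and 89.39 by 3.5 HAP and 165.7 and 173.6 by 8 HAP. Both unpollinated arrays stood above all 6 pollinated arrays, and the means at 0.5 and 3.5 HAP were at background level. The log2 difference from unpollinated pistils was -3.25 at 0.5 HAP, -3.66 at 3.5 HAP and -2.92 at 8 HAP (SE 0.242). As folds these are 9.51, 12.7 and 7.57. Since 2 of the 3 pollinated means lay at background level, those folds depend on the background and on the 16 added. In the order of the 22745 differences, cox2 was at place 6 from the lowest at 0.5 HAP and again at 3.5 HAP. The unpollinated arrays themselves differed 2.08-fold. Without unpollinated replicate 2, the brighter and the one set apart by its actin ratio, cox2 was lower by 6.63-fold at 0.5 HAP, 8.83-fold at 3.5 HAP and 5.27-fold at 8 HAP.

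nad4L, a small membrane subunit of complex I, had intensities of 662.0 and 1057 in unpollinated pistils, then 85.88 and 92.04 at 0.5 HAP, 71.69 and 67.21 by 3.5 HAP and 119.6 and 98.27 by 8 HAP. All 3 pollinated means were at background level, and no pollinated array came near the unpollinated ones. The log2 differences from unpollinated pistils were -3.02 at 0.5 HAP, -3.32 at 3.5 HAP and -2.78 at 8 HAP (SE 0.179), or 8.13-, 9.99- and 6.85-fold. They came to 6.46-, 7.94- and 5.45-fold without unpollinated replicate 2.

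nad9, a subunit of the arm of complex I that reaches into the matrix, stayed above background level throughout. It had intensities of 1464 and 2385 in unpollinated pistils, then 284.0 and 366.0 at 0.5 HAP, 159.0 and 173.2 by 3.5 HAP and 321.4 and 314.7 by 8 HAP. Its arrays at 0.5 and 8 HAP overlapped, and those at 3.5 HAP were below both. The log2 differences from unpollinated pistils were -2.48 at 0.5 HAP, -3.37 at 3.5 HAP and -2.50 at 8 HAP (SE 0.205), or 5.57-, 10.4- and 5.64-fold. The folds were 4.37, 8.13 and 4.43 without unpollinated replicate 2.

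orfX, the export machinery gene, had a different course. Its intensities were 472.9 and 891.7 in unpollinated pistils, then 1130 and 1418 at 0.5 HAP, 160.0 and 273.3 by 3.5 HAP and 1400 and 1552 by 8 HAP. The arrays at 0.5 and 8 HAP lay above the unpollinated ones and those at 3.5 HAP below them, with no overlap. The log2 difference from unpollinated pistils was 0.94 at 0.5 HAP, -1.56 at 3.5 HAP and 1.16 at 8 HAP (SE 0.265). The replicates were uneven, with a ratio of 1.89 between the unpollinated arrays and 1.71 between those at 3.5 HAP. Without unpollinated replicate 2 the log2 differences were 1.39, -1.12 and 1.61 at the 3 times. The name of the orfX probe set, 244928_s_at, carries the platform's mark for probes shared by several transcripts, so its signal may not come from 1 gene.

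ccb382, the haem attachment gene, varied least of the 5. It had intensities of 1722 and 1585 in unpollinated pistils, then 1673 and 1400 at 0.5 HAP, 769.5 and 1032 by 3.5 HAP and 1369 and 1182 by 8 HAP. Arrays at 0.5 HAP overlapped with the unpollinated ones, while those at 3.5 HAP were the lowest of all. The log2 difference from unpollinated pistils was -0.11 at 0.5 HAP, -0.88 at 3.5 HAP and -0.37 at 8 HAP (SE 0.153). The difference at 0.5 HAP had no settled direction, at -0.24 to 0.02 as single arrays were left out. The 2 unpollinated arrays of ccb382 were within 1.09-fold of each other, and here replicate 1 was the brighter one.

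**Figure D1:**
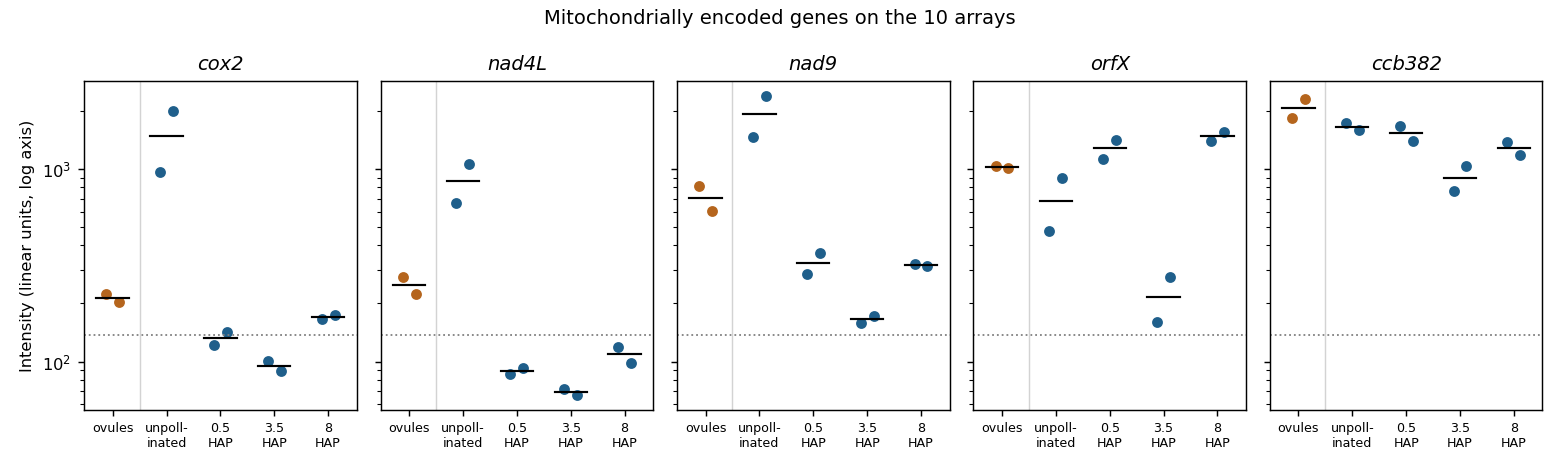
Intensity of each gene (linear units on a log axis) on the 10 arrays, with 1 point per array, a bar at each group mean and a dotted line at the background level of 136.5. cox2, nad4L and nad9 are high in the unpollinated pistils (cox2 961.8 and 2001) and low at all 3 times, while orfX and ccb382 are lowest at 3.5 HAP (orfX 160.0 and 273.3).

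Counting arrays that do not overlap, 3 of the 5 genes were lower and 1 was higher at 0.5 HAP than in unpollinated pistils. Of all probe sets 33.4% were lower and 30.2% higher by the same count. At 3.5 HAP all 5 were lower, against a background of 38.9%. At 8 HAP 4 were lower and orfX was higher, where 34.6% of all probe sets were lower and 33.1% higher. These comparisons share the unpollinated arrays, and they chose the members, so nothing is read from the shares.

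The log2 differences between the pollinated times do not use the unpollinated arrays. Their standard errors do, since the same model, with a shared spread, was fitted to all arrays. For cox2 the SE was 0.242 in every comparison. Its log2 difference of replicate 2 from replicate 1 was 1.04 in unpollinated pistils, 0.21 at 0.5 HAP, -0.14 at 3.5 HAP and 0.06 at 8 HAP. The genes were also chosen by their values on all the arrays, so the steps and places below are description too. From 0.5 to 3.5 HAP all 5 genes were lower with no overlap of arrays (38.1% of all probe sets). orfX averaged 216.6 ± 80.1 at 3.5 HAP and 1274 ± 204 at 0.5 HAP (SD, n = 2 each). That log2 difference of -2.51 (SE 0.265, 5.68-fold) was the lowest of all 22745 in this step. It ran from -2.86 to -2.15 as single arrays were left out. nad9 was lower by a log2 difference of -0.90 (SE 0.205) and ccb382 by -0.77 (SE 0.153). For cox2 the step was -0.41 (SE 0.242) and for nad4L -0.30 (SE 0.179), both between means at background level.

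From 3.5 to 8 HAP all 5 genes were higher with no overlap, as were 43.2% of all probe sets. orfX averaged 1476 ± 107 at 8 HAP and 216.6 ± 80.1 at 3.5 HAP (SD, n = 2 each), a log2 difference of 2.72 (6.60-fold), at place 2 from the highest. Leaving out single arrays gave 2.37 to 3.08. nad9 was higher by a log2 difference of 0.88, cox2 by 0.74, nad4L by 0.54 and ccb382 by 0.51. At 8 HAP cox2, nad4L and nad9 remained at 169.6 ± 5.58, 108.9 ± 15.1 and 318.1 ± 4.74 (SD, n = 2 each), far under their unpollinated means of 1481 ± 735, 859.5 ± 279 and 1925 ± 651 (SD, n = 2 each).

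The 25S ribosomal RNA control moved with the low point at 3.5 HAP. Its intensity was 6982 and 7524 in unpollinated pistils, then 6991 and 7047 at 0.5 HAP, 4962 and 5286 by 3.5 HAP and 6371 and 6645 by 8 HAP. Both arrays at 3.5 HAP were thus the lowest for this control too, by a far smaller ratio than for orfX. The log2 actin ratio at 3.5 HAP was 2.15 and 1.93, against 2.25 and 2.20 at 0.5 HAP. Their part in the low point of orfX, ccb382 and the other members was not tested.

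**Figure D2:**
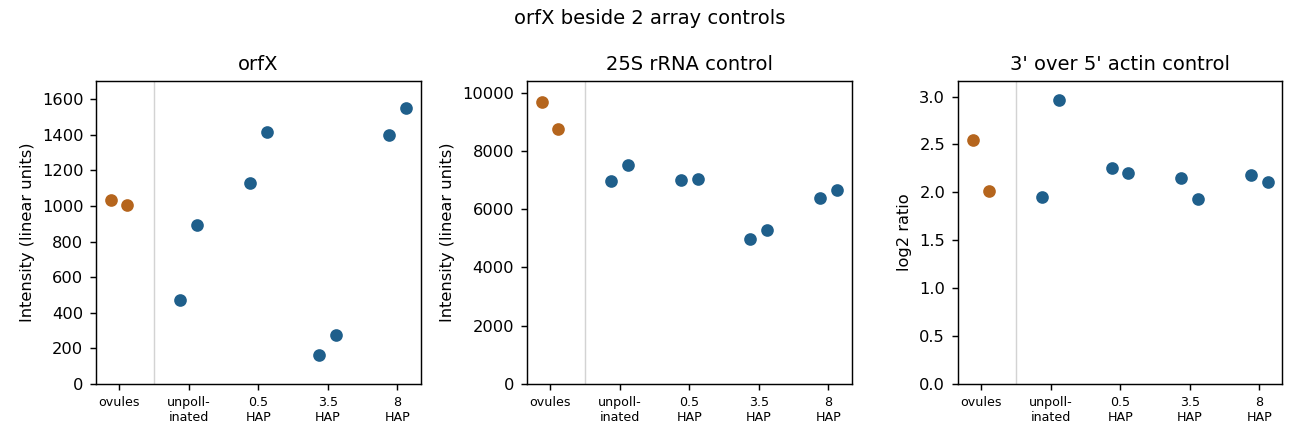
Intensity of orfX (left) and of the 25S ribosomal RNA control (middle) in linear units, and the log2 ratio of 3' to 5' actin control probe sets (right), 1 point per array. orfX at 3.5 HAP (160.0 and 273.3) and the rRNA control at 3.5 HAP (4962 and 5286) are each the lowest of their panel, and unpollinated replicate 2 has the highest actin ratio (2.96).

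Ovules were set against the whole unpollinated pistils from which they were dissected. cox2 had 225.3 and 203.8 in ovules, against 961.8 and 2001 in unpollinated pistils (log2 difference -2.61). nad4L had 273.5 and 222.7 in ovules, against 662.0 and 1057 in unpollinated pistils (-1.70). nad9 had 812.6 and 601.9 in ovules, against 1464 and 2385 in unpollinated pistils (-1.40). All 3 were thus lower in ovules, at levels still above those of every pollinated group. Without unpollinated replicate 2 they were lower by 4.25-, 2.58- and 2.07-fold, against 6.10-, 3.24- and 2.64-fold with it.

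The other pair was higher in ovules. orfX had 1036 and 1008 in ovules, against 472.9 and 891.7 in unpollinated pistils, a log2 difference of 0.64 (0.19 without unpollinated replicate 1 and 1.09 without replicate 2). ccb382 had 1830 and 2311 in ovules, against 1722 and 1585 in unpollinated pistils, a log2 difference of 0.31 that turned to -0.02 when arrays were centred on 3 reference genes. Among all probe sets 31.4% were lower in ovules and 39.2% higher with no overlap. That centring moved the median difference of all probe sets by -0.33 between ovules and unpollinated pistils, and by at most 0.13 in the pistil comparisons. The 25S control was also higher in ovules, at 9669 and 8763, than in unpollinated pistils, at 6982 and 7524. Its part was not tested.

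From high to low, the group means of cox2 and nad4L ran from unpollinated pistils through ovules, 8 HAP and 0.5 HAP to 3.5 HAP, with no overlap of arrays between neighbours. nad9 had the same order, save that 0.5 and 8 HAP did not differ beyond their spread. For orfX the order was 8 HAP, 0.5 HAP, ovules, unpollinated pistils and 3.5 HAP, with an overlap between the first pair. For ccb382 it was ovules, unpollinated pistils, 0.5 HAP, 8 HAP and 3.5 HAP, and unpollinated pistils overlapped with 0.5 HAP.

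Another 18 probe sets, none of them members, named 1 gene of the mitochondrial genome, 11 genes in all. They were read on the same arrays by which the members were chosen, so their counts are no independent check. Most of them were also lower after pollination. By limma with Benjamini-Hochberg adjustment over all probe sets, 15 of 18 fell and 0 rose at 0.5 HAP against unpollinated pistils (14.7% of all probe sets fell), with a median log2 difference of -0.89 against -0.02 over all. At 3.5 HAP 15 fell and 0 rose (17% of all fell), with a median of -1.21 against -0.07. At 8 HAP 16 fell and 0 rose (18.8% of all fell), with a median of -0.94 against -0.01. Without unpollinated replicate 2 the falls numbered 13, 14 and 15. In all 14 of the 18 fell at every time, as did 7.25% of all probe sets, and 6 of the 18 had every group mean at background level.

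The largest differences were those of ccb206, nad1, nad6 and nad5. ccb206, listed as ccmB and the next protein-coding gene to cox2 in the TAIR10.1 gene table, had 916.7 and 1230 in unpollinated pistils, then 207.0 and 227.7 at 0.5 HAP, 164.5 and 195.9 by 3.5 HAP and 259.8 and 263.2 by 8 HAP. Its pollinated arrays did not overlap with the unpollinated ones, and it fell by log2 differences of -2.21, -2.46 and -1.96 at the 3 times (adjusted p = 9.67e-07, 2.61e-07 and 1.2e-06). It acts, like ccb382, in cytochrome c maturation, and its group means had the same order as those of cox2. nad6, a complex I subunit, fell by -1.90, -2.15 and -1.98 to means at background level. nad5, the complex I subunit read by 257338_s_at, fell by -1.74, -2.36 and -1.87.

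The 7 probe sets annotated to nad1, whose coding exons lie apart in the plant mitochondrial genome, did not move alike. 257322_at fell by -2.05, -2.33 and -2.14 at the 3 times, with a mean of 139.4 ± 1.69 at 3.5 HAP and 785.0 ± 244 in unpollinated pistils (SD, n = 2 each). 257327_at and 257329_at, with every group mean at background level, were not called at any time against unpollinated pistils. 257321_at, also at background level, fell by -0.26, -0.51 and -0.31, and lost its calls at 0.5 HAP (adjusted p = 0.217) and 8 HAP (adjusted p = 0.145) when arrays were centred on the 3 reference genes. nad2, read at 13.82 to 31.4 in every group mean and so within background level, gives no level to compare.

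In the steps between times, few of the other mitochondrial probe sets were called. The tests of these steps also rest on the spread in all groups, that of the unpollinated arrays included. From 0.5 to 3.5 HAP 2 of 18 fell and 1 rose (9% and 5.19% of all probe sets), and from 3.5 to 8 HAP 1 fell and 4 rose (12.4% and 18.9%). The rise in the first step and the fall in the next were both of nad2, within background level. The median log2 differences were -0.23 and 0.19. Of the 18 only nad4 was called both lower to 3.5 HAP and then higher to 8 HAP, against 5.53% of all probe sets. Others stepped the same way with no overlap of arrays but missed a call, such as cox1 and ccb452, named after their values were seen. cox1 stepped by -0.65 (adjusted p = 0.0356) and 0.45 (adjusted p = 0.0844). For ccb452 the steps were -0.63 (adjusted p = 0.0586) and 0.77 (adjusted p = 0.0147). nad4, a complex I subunit, is also named after its values were seen, and it is a neighbour of orfX in the gene table. ccb382 and nad4L, on either side of cox3 there, differed (log2 -0.11 and -3.02 at 0.5 HAP). The part of gene position was not tested. Unlike orfX, nad4 had means below the unpollinated one at 0.5 and 8 HAP. It had 2527 and 3892 in unpollinated pistils, then 2376 and 2373 at 0.5 HAP, 1139 and 1382 by 3.5 HAP and 2325 and 1771 by 8 HAP. Its step to 3.5 HAP was -0.91 (adjusted p = 0.0112, and 0.0999 without 3.5 HAP replicate 1) and its step to 8 HAP 0.69 (adjusted p = 0.0218, and 0.175 without 8 HAP replicate 1).

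In ovules 12 of the 18 fell and 0 rose against unpollinated pistils (22% of all probe sets fell), with a median of -0.57 against 0.04 over all. ccb206 had 257.3 and 308.0 in ovules, against 916.7 and 1230 in unpollinated pistils (log2 -1.86, adjusted p = 6.47e-07). nad1 by 257322_at behaved otherwise: its 841.8 and 568.9 in ovules overlapped with the 612.3 and 957.7 of unpollinated pistils (log2 -0.14, adjusted p = 0.572). The falls in ovules numbered 10 without unpollinated replicate 2.

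**Figure D3:**
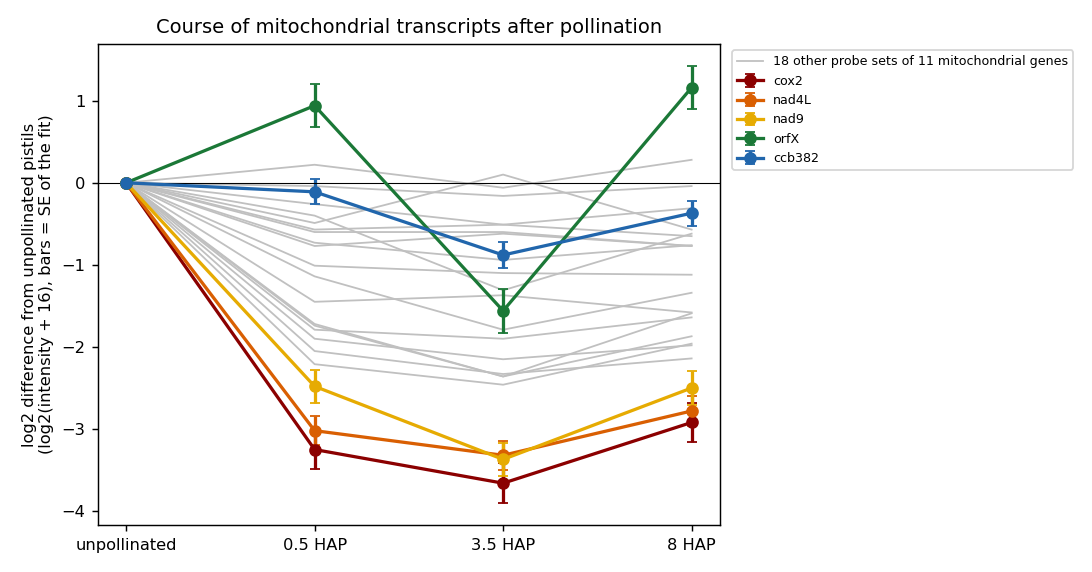
Difference from unpollinated pistils in log2(intensity + 16) at 0.5, 3.5 and 8 HAP for the 5 genes (coloured, bars are the SE of the fit) and for 18 probe sets of 11 other mitochondrial genes (grey). cox2, nad4L and nad9, chosen by their values on these arrays, lie below all grey lines (cox2 -3.66 at 3.5 HAP). orfX crosses from above to below the unpollinated level and back.

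A block of chromosome 2 in ecotype Columbia carries a large nuclear copy of the mitochondrial genome. The array cannot separate RNA of near-identical copies, and probe sequences were not used here, so which copy gave a signal is uncertain for every gene named above. In that block, AT2G07660 to AT2G07840, 34 probe sets named 1 gene. Of them 10 fell and 1 rose at 0.5 HAP, 17 fell and 0 rose at 3.5 HAP, and 9 fell and 2 rose at 8 HAP against unpollinated pistils. Over all probe sets 14.7%, 17% and 18.8% fell at these times. The median differences were -0.16, -0.34 and -0.18, and 16 of the 34 stayed at background level.

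AT2G07718, a gene of the block, had 2264 and 2766 in unpollinated pistils, then 177.5 and 173.3 at 0.5 HAP, 148.4 and 159.4 by 3.5 HAP and 186.3 and 170.0 by 8 HAP. It fell by log2 differences of -3.72, -3.89 and -3.70 (adjusted p = 3.32e-08, 4.8e-09 and 3.18e-09). Its step from 3.5 to 8 HAP was 0.19 (adjusted p = 0.278), with both arrays at 8 HAP above those at 3.5 HAP. AT2G07722 fell by -2.94, -2.85 and -2.96, and AT2G07741 by -2.45, -2.66 and -2.36. AT2G07707 fell by -2.46, -3.46 and -2.28. Its steps between times passed the test as well, at -1.0 to 3.5 HAP (adjusted p = 0.000898) and 1.17 to 8 HAP (adjusted p = 0.000175). In ovules all 4 were lower than in unpollinated pistils, by -1.48, -0.99, -0.81 and -1.53 for AT2G07718, AT2G07722, AT2G07741 and AT2G07707. All 4 probe sets carry the same mark for shared probes as that of orfX. Among the other mitochondrial genes named, nad6 (244953_s_at), ccb452 (244951_s_at) and nad5 by 257338_s_at carry it too.

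A further 11 probe sets were annotated to a mitochondrial and a chromosome 2 gene together and are not named. At 0.5 and 8 HAP they moved in both directions, as the 5 genes did. Against unpollinated pistils 6 fell and 3 rose at 0.5 HAP, 10 fell and 0 rose at 3.5 HAP, and 6 fell and 2 rose at 8 HAP, beside the same shares over all. From 0.5 to 3.5 HAP 7 of the 11 fell (9% of all probe sets), and from 3.5 to 8 HAP 8 rose (18.9%), with 7 doing both (5.53%).

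Genes of the plastid genome, the other organelle genome, were read by 69 probe sets. At 0.5 HAP 1 fell and 30 rose against unpollinated pistils (14.7% and 15.5% of all probe sets), at 3.5 HAP 4 fell and 1 rose (17% and 12.9% of all), and at 8 HAP 4 fell and 19 rose (18.8% and 19.7% of all). Of the 69, 0 fell at every time (7.25% of all probe sets), and 26 fell to 3.5 HAP and then rose (5.53%). Plastid genes were also lower in ovules, where 51 of the 69 fell and 0 rose against unpollinated pistils (22% of all fell). Their median log2 difference there was -0.71.

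Nuclear genes of the respiratory chain and of mitochondrial RNA metabolism did not share the low levels after pollination. Over 28 probe sets in 7 lists, 2 fell and 9 rose at 0.5 HAP, 3 fell and 10 rose at 3.5 HAP, and 1 fell and 12 rose at 8 HAP against unpollinated pistils. The rises stand beside 15.5%, 12.9% and 19.7% of all probe sets at those times. The medians were 0.18, 0.14 and 0.16, and 0 of the called differences reached 2-fold. Without unpollinated replicate 2, 7 of the 28 were called at 3.5 HAP in place of 13. Between times few were called: 0 from 0.5 to 3.5 HAP, and 1 fall and 2 rises from 3.5 to 8 HAP.

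In complex II, which has no member here, 3 of 4 probe sets rose at each time. SDH1-1, its flavoprotein subunit, had 1043 and 896.4 in unpollinated pistils, then 1710 and 1706 at 0.5 HAP, 1477 and 1588 by 3.5 HAP and 1775 and 1724 by 8 HAP. It rose by log2 differences of 0.81, 0.65 and 0.85 (adjusted p = 9.83e-05, 0.000421 and 4.49e-05). SDH2-1 and SDH2-2, iron-sulphur subunits, rose by 0.40 and 0.34 at 0.5 HAP. Each missed the threshold there without 1 array, SDH2-1 without 0.5 HAP replicate 2 (adjusted p = 0.0503) and SDH2-2 without 0.5 HAP replicate 1 (adjusted p = 0.0978).

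In the complex IV list, to whose core cox2 belongs, 2 of 4 probe sets rose and 1 fell at each time. AT3G15640 had 1551 and 1281 in unpollinated pistils, then 2434 and 2381 at 0.5 HAP, 2386 and 2544 by 3.5 HAP and 2465 and 2531 by 8 HAP. It rose by 0.77, 0.80 and 0.82 (adjusted p = 0.000352, 0.000243 and 0.000141), where cox2 was lower at all 3 times. AT1G80230 rose by 0.48, 0.41 and 0.63, and was no longer called at that time without 0.5 HAP replicate 1 (adjusted p = 0.084) and without 3.5 HAP replicate 1 at 3.5 HAP (adjusted p = 0.0932). AT4G37830 fell by -0.30, -0.22 and -0.37. Its call at 0.5 HAP was lost when arrays were centred on the 3 reference genes (adjusted p = 0.1), and its call at 3.5 HAP without unpollinated replicate 2 (adjusted p = 0.16).

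In the complex I list, to which nad4L and nad9 would add, 1 of 5 nuclear genes rose at 0.5 HAP, 2 at 3.5 HAP and 1 at 8 HAP, and 0 fell. AT5G52840 rose by 0.35 at 0.5 HAP and 0.38 at 8 HAP (adjusted p = 0.00423 and 0.00171). Its log2 difference of 0.21 at 3.5 HAP was no call without 3.5 HAP replicate 1 (adjusted p = 0.178). AT4G02580 was higher by 0.27 at 3.5 HAP (adjusted p = 0.0395), a call lost without unpollinated replicate 2 (adjusted p = 0.212). AT5G47890 had log2 differences of 0.08, -0.29 and -0.24 and was not called.

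Among 6 genes of complex III and cytochrome c, 0 were called at 0.5 HAP, 1 fell and 1 rose at 3.5 HAP, and 4 rose at 8 HAP. AT1G51980 rose by 0.31 at 3.5 HAP (adjusted p = 0.0126) and AT3G27240 by 0.31 at 8 HAP (adjusted p = 0.00858). Leaving out 3.5 HAP replicate 2 ended the first call (adjusted p = 0.112), and leaving out 8 HAP replicate 2 ended the second (adjusted p = 0.0604). CYTC-1, a cytochrome c gene, was not called at any time against unpollinated pistils. CCMH, of the nuclear side of the cytochrome c maturation pathway that ccb382 serves, was not called either (log2 differences 0.18, -0.09 and -0.06).

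Of 5 genes of alternative respiration 3 rose and 1 fell at 0.5 HAP, and 2 rose at each later time. NDC1, an alternative NAD(P)H dehydrogenase, rose by 0.65 at 0.5 HAP (adjusted p = 0.00154) and 0.49 at 3.5 HAP (adjusted p = 0.00779). NDB1, of the same enzyme family, rose by 0.36, 0.49 and 0.32, and was no longer called at 0.5 HAP once 0.5 HAP replicate 1 was left out (adjusted p = 0.067) and at 8 HAP once 8 HAP replicate 2 was left out (adjusted p = 0.0707). NDB2 was higher by 0.34 at 0.5 HAP (adjusted p = 0.0451), which ended without 0.5 HAP replicate 1 (adjusted p = 0.24). Among 3 genes of mitochondrial RNA synthesis and processing 1 call was made against unpollinated pistils, a fall of AT5G46920 at 3.5 HAP (log2 -0.32, adjusted p = 0.0366). Leaving out 3.5 HAP replicate 2 ended it (adjusted p = 0.184). AT5G15700 had log2 differences of -0.07, -0.17 and -0.13 and AT5G14580 of -0.16, -0.28 and 0.08, none of them called.

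In ovules 11 of the 28 nuclear probe sets rose and 1 fell against unpollinated pistils, where 29.6% of all probe sets rose. NDB1 had 372.6 and 333.1 in ovules, against 224.1 and 228.9 in unpollinated pistils (log2 0.60, adjusted p = 9.67e-05). CYTC-1 had 4899 and 4752 in ovules, against 3715 and 3656 in unpollinated pistils (log2 0.39, adjusted p = 0.000213). These rises depended on the scaling. Of 9 named genes that rose, 8 were no longer called with arrays centred on 3 reference genes, CYTC-1 (adjusted p = 0.55) among them, and NDB1 was still called (adjusted p = 0.0318). The other 7 were AT5G52840, SDH2-1, AT1G51980, AT3G15640, AT1G80230, CCMH and NDB2, at adjusted p = 0.128 (AT3G15640) to 0.937 (AT1G51980), and the sign of SDH2-1 and CCMH reversed.

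**Figure D4:**
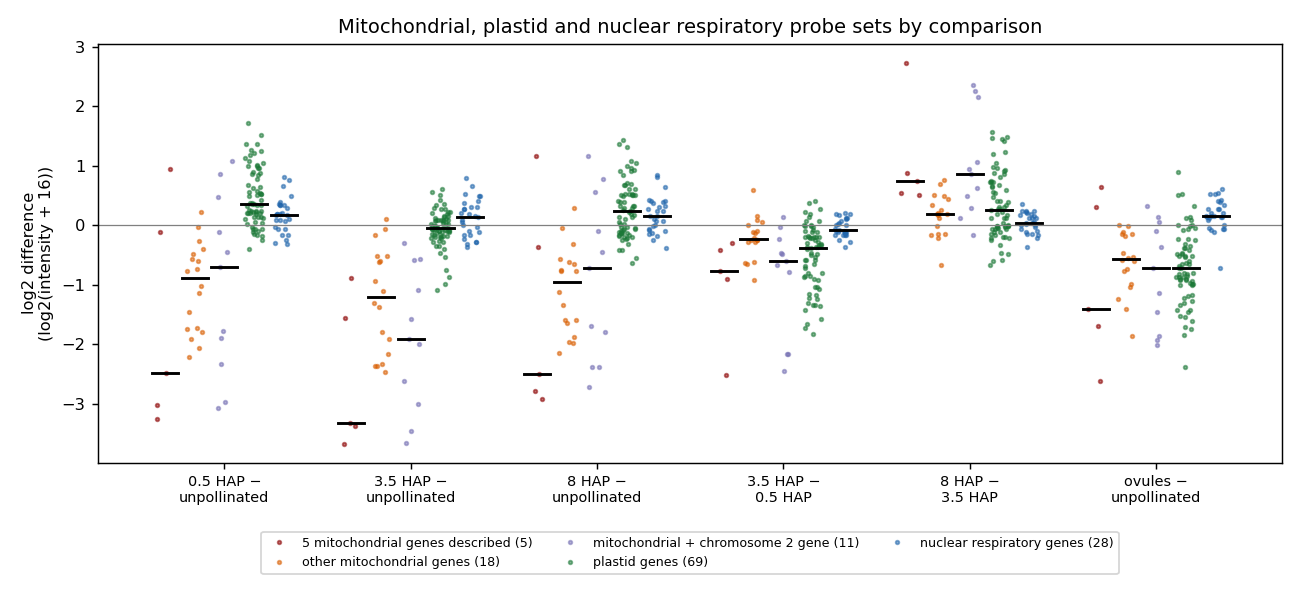
Difference in log2(intensity + 16) for each probe set of 5 sets in the 6 comparisons, with a black bar at each set's median. The medians of the 3 mitochondrial sets lie below 0 against unpollinated pistils (median -0.89 for the 18 other probe sets at 0.5 HAP), whereas the 28 nuclear respiratory probe sets stay within 1 log2 unit of 0.

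Likeness of course was measured by Pearson's r on the log2 values over the 10 arrays. The 9431 candidate probe sets named 1 gene, had a group mean above background level and were none of the 5 members. All points share arrays, the scaling and the 5 groups, so r is a description. The genes most like cox2 were ccb206 (0.989), nad6 (0.980) and nad1 by 257325_at (0.968), all mitochondrial. For nad4L they were AT2G07777 (0.984), nad5 by 257337_at (0.983) and AT1G78750 (0.981), and for nad9 AT2G07707 (0.987), AT2G32340 (0.982) and AT5G43920 (0.979). By annotation all those of nad9, and AT2G07777 and AT1G78750, are on nuclear chromosomes. AT2G07777 and AT2G07707 lie in the chromosome 2 block.

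Probe sets annotated to several genes were not candidates. These include the 11 of a mitochondrial and a chromosome 2 gene together, of which 7 fell to 3.5 HAP and then rose. As for nad9, all the nearest genes of orfX and ccb382 among the candidates were nuclear. They were AT3G19460 (0.957), M10 (0.956) and AT4G18330 (0.955) for orfX, and LPR2 (0.939), AT2G26920 (0.932) and AT4G00590 (0.932) for ccb382. The size of the change differed: M10 had 184.6 and 245.2 in unpollinated pistils, then 239.6 and 219.9 at 0.5 HAP, 127.5 and 139.7 by 3.5 HAP and 238.2 and 241.6 by 8 HAP. Its dip at 3.5 HAP was thus far shallower than that of orfX. LPR2 had 1535 and 1702 in unpollinated pistils, then 1448 and 1459 at 0.5 HAP, 1033 and 1164 by 3.5 HAP and 1270 and 1287 by 8 HAP, a range close to that of ccb382.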

How the data were processed

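RNA of pistils and ovules was amplified in 2 rounds and hybridised to one-colour arrays, per the labels' protocols. The primer of the reverse transcription is not given in the sources used here. The authors deposited 1 table of linear intensity values for 22810 probe sets. MAS5 is named in the submitters' processing notes, without a version and without saying for which step. A common scaling was inferred from the close array medians, and its method is unknown.

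Of the probe sets, 64 controls and 1 without values were left out, and no filter was applied to the other 22745. Names came from the platform annotation (13513 probe sets named 1 gene and 503 several) and from a gene table of assembly TAIR10.1. Mitochondrial genes were those whose gene ID was not in that table and whose symbol or synonym matched a protein-coding mitochondrial gene there. That rule would miss a mitochondrial probe set whose gene ID was in the table, so the list of other mitochondrial genes may not be complete. Of the listed nuclear genes, those measured under a name were 5 of 14 for complex I, 3 of 6 for complex II, 6 of 9 for complex III and cytochrome c, 4 of 9 for complex IV, 1 of 3 for cytochrome c maturation, 5 of 13 for alternative respiration and 3 of 7 for RNA metabolism.

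Intensities were taken as log2(intensity + 16). All 10 arrays entered 1 linear model in limma 3.58.1 (R 4.3.3), moderated with an intensity trend. It had 5 residual degrees of freedom and a prior of 6.106. P-values were adjusted by Benjamini-Hochberg over all probe sets, with a threshold of 0.05. The script was tested on simulated data. With 2 arrays per group precision is limited, and p-values rest on the spread between pools of plants.

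The members and lists were chosen with earlier results of these data known. All members are named. Of the other mitochondrial genes, the 4 probe sets with the largest and the 4 with the smallest summed difference are named, of the chromosome 2 block the 4 largest at 0.5 HAP, and of each nuclear list up to 3 by limma's F test. Deviations of same-numbered replicates from their group means correlated at -0.32 to 0.11 over 10 pairs of groups. Equal numbers thus did not mark arrays that deviated together. A negative value means that arrays of unlike number deviated together, and the reason was not tested. Python 3.11.15 with pandas 2.3.3 and matplotlib 3.10.9 made the tables and figures. No sequences were used, and coordinates of the gene table served only to order the mitochondrial genes. Alternatives were pseudocounts of 1 and 64, quantile normalization, leaving out the dimmest 40% of probe sets, no trend, fewer groups in the fit, centring on 3 reference genes, the replicate number as a block, and each array left out in turn.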

Additional observations from a re-analysis of the deposited data

How the results depend on the processing

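With 2 arrays per group, values against unpollinated pistils rest on 2 arrays that differed by up to 2.08-fold for the 5 genes, and means at background level give folds without an exact size. The median difference of the 5 genes from 3.5 to 8 HAP was 0.74, and 0.83 with a pseudocount of 1, 0.56 with 64, 0.65 after quantile normalization and 0.87 centred on the reference genes. At 3.5 HAP against unpollinated pistils it was -3.32, and -2.76 with a pseudocount of 64. Leaving out the dimmest 40% of probe sets, which tests fewer of them, left 8, 9 and 9 of the other mitochondrial calls at 0.5, 3.5 and 8 HAP against unpollinated pistils, 3 from 3.5 to 8 HAP and 7 in ovules. The chromosome 2 block then had 6, 11 and 6 calls against unpollinated pistils, 5 in each step between times and 8 in ovules.

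Centring on the reference genes gave 6 other mitochondrial and 2 nuclear calls from 0.5 to 3.5 HAP, 9 nuclear calls from 3.5 to 8 HAP, and 25 calls of the chromosome 2 block in ovules. Under it the ovule differences of ccb382 (-0.017), SDH2-1 (-0.052) and CCMH (-0.06) reversed, and the cause was not tested.

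Leaving out single arrays gave 3723 to 7318 calls over all probe sets at 0.5 HAP (lowest without 0.5 HAP replicate 1), 3981 to 8157 at 3.5 HAP (lowest without 3.5 HAP replicate 2) and 5610 to 9111 at 8 HAP (lowest without 8 HAP replicate 2). The step to 3.5 HAP had 982 to 4469 (lowest without 0.5 HAP replicate 1) and that to 8 HAP 3563 to 8571 (lowest without 8 HAP replicate 2). Other mitochondrial calls ranged from 1 to 6 (fewest without 0.5 HAP replicate 1) and from 1 to 8 (fewest without 3.5 HAP replicate 1) in these steps. The chromosome 2 block had 10 to 19 calls at 3.5 HAP, 9 to 17 at 8 HAP, and 4 to 9 and 5 to 11 in the steps. The nuclear lists had 5 to 15, 6 to 15 and 7 to 16 calls at the 3 times against unpollinated pistils, and 0 to 3 and 0 to 4 in the steps. The median of the 5 genes was -0.95 to -0.56 in the step to 3.5 HAP and 0.71 to 0.82 in that to 8 HAP.

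With the replicate number as a block, the other mitochondrial calls were 15, 15 and 16 at the 3 times and 12 in ovules. Each group holds 1 array of each number, so the block cannot change a log2 difference. The median of the 5 genes, -2.48, -3.32 and -2.50, was thus the same by design. All counts under the block stayed within 1.5 times those without it, and it is given only because the labels number the replicates.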
